A study of Mus musculus with 9 samples.

Results

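The 39 genes described here are immediate early genes (IEGs) and the early effector genes that are induced with them when neurons and other brain cells are stimulated. They were taken by gene name from a table of 38621 genes, and all 39 were found. The list was chosen with earlier results of these data known, so its shares beside those of all genes are a description. By role they comprised 15 fast transcription factors (Fos, Fosb, Fosl2, Egr1 to Egr4, Npas4, Nr4a1 to Nr4a3, Klf2, Klf4, Klf6, and Klf10), 4 other bZIP transcription factors (Jun, Junb, Maff, and Atf3), 5 MAP kinase phosphatases (Dusp1, Dusp4, Dusp5, Dusp6, and Dusp14), 6 late effectors (Arc, Homer1, Ptgs2, Nptx2, Inhba, and Bdnf), 3 kinases or pseudokinases (Sik1, Plk2, and Trib1), and 6 growth arrest or Ier genes (Ier2, Ier3, Ier5, Btg2, Gadd45b, and Gadd45g).

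IEGs are transcribed within minutes of a stimulus and need no new protein to start. In neurons, calcium that enters through NMDA receptors and voltage-gated channels activates CaM kinases and the MAP kinase pathway, which act on the transcription factors CREB, SRF, and MEF2 already bound at IEG promoters. The fast transcription factors then drive later genes, the effectors act at synapses or as secreted signals, and the Dusp phosphatases switch the MAP kinases off again. In brain tissue these genes are widely used as a record of recent neuronal activity, and injury, handling, and surgery also induce them.

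RNA-seq was performed on brain tissue of 9 male C57BL/6 mice, 3 each in the sham, ICH, and feb groups, and per the methods of the study the mice were operated on under chloral hydrate. Sham mice are labeled untreated, and the methods of the study describe a saline injection. ICH mice, labeled Model, received their own blood by stereotaxic injection as a model of intracerebral hemorrhage. Feb mice, labeled F, received the same injection of blood after a course of febuxostat, an inhibitor of xanthine oxidase, by daily gavage, and no gavage of vehicle is described for the other groups. No feb group without ICH was analysed here, and the sources used here name neither the age of the mice, the dissected region, nor the time between injection and sampling. The comparisons address how ICH and febuxostat pretreatment alter the brain transcriptome, here for IEGs.

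Levels are RPKM, the reads of a gene divided by its exon length and by the total of reads that were counted on genes in that mouse. Between 23065757 and 29538009 reads per mouse were counted on genes, and 3 reads on 1 kb of exon correspond to an RPKM of 0.102 to 0.130. The IEGs had between 12 and 4217 reads in a mouse, and 27 of the 39 had at least 100 reads in every mouse. Library pairs of the same group differed by more than sampling noise, so no library was a copy of another. Markers of neurons in general were present in every mouse, with a summed RPKM of 625.8 to 980.9 over 6 genes, whereas 6 markers of infiltrating leukocytes summed to only 0.209 to 1.23. Differences are log2 fold changes of RPKM + 0.1 from limma with the standard error (SE), fitted over 29025 genes that reached an RPKM of 0.1 in 3 or more mice. A gene was called when its unadjusted p was under 0.05 and its fold change over 2, the criteria of the study, and a gene that met only the first is described as passing the p criterion. Adjusted p-values were computed by the Benjamini-Hochberg method for the whole table.

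To show what the IEG promoters share, the 250 bases before the RefSeq start site were searched for short motifs on GRCm38.p6, the build of the deposited positions. A window was read for 30 of the 39 genes, and none for Egr1, Egr3, Klf10, Dusp4, Arc, Nptx2, Sik1, Trib1, and Ier2. Of these, Egr1, Klf10, and Arc are called below, so the motif counts leave them out. TGACG, the core of the cAMP response element (CRE) to which CREB binds, was searched on both strands and lay in 17 of the 30 windows (56.7%), against 17.9% of 27025 windows of the same length over all genes. The full palindrome TGACGTCA, which contains that core, lay in 4 (Maff, Dusp1, Plk2, and Btg2; 13.3%), against 1.62% of all windows. Nr4a1, Nr4a2, and Nr4a3 had the most copies of the core, 4 each. The windows of Nr4a1, Nr4a2, Plk2, and Fos, which all hold the core, are printed. The first 3 are IEGs called below and Fos is the classical IEG. Of the other called IEGs with a window, Maff had the core and Egr2 did not, and neither is printed. Capitals mark the CRE core, written CGTCA where it lies on the other strand, or the full palindrome in Plk2.
Nr4a1, chr15:101266596-101266845, plus strand: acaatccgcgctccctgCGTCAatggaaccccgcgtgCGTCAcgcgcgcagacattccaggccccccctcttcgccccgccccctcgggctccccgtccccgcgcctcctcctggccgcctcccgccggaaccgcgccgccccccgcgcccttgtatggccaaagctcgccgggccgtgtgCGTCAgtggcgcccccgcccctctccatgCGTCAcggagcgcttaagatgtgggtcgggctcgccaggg
Nr4a2, chr2:57124004-57124253, minus strand: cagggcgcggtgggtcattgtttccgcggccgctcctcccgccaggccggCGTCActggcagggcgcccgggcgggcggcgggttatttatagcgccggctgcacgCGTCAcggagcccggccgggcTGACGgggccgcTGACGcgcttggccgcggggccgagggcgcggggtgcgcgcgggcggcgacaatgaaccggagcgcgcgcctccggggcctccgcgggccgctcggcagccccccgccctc
Plk2, chr13:110394794-110395043, plus strand: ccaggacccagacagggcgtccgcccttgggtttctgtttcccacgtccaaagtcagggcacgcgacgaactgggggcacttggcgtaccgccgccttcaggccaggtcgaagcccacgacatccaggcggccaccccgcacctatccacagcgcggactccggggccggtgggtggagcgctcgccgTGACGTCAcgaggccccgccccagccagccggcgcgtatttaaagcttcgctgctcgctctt
Fos, chr12:85473640-85473889, plus strand: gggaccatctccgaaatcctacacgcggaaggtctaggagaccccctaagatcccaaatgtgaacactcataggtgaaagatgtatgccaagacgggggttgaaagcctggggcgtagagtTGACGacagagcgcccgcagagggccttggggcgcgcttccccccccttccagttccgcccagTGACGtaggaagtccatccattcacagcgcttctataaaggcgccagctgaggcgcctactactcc
The palindrome of Plk2 lay 62 to 55 bases before the start, and the cores of Fos lay at 129 to 125 and 66 to 62 bases. The AP-1 motif TGANTCA was in 0 of the 30 windows and in 6.87% of all windows. The CArG box bound by SRF was in 1 window, that of Dusp5, against 1.40% of all windows, and TATAAA on the strand of the gene was in 4 (Fos, Inhba, Gadd45b, and Gadd45g), against 8.12% of all windows. These matches are a description of the letters in these windows. Sites farther than 250 bases upstream, and those of the IEGs without a window, were not searched. IEGs with the core had a median log2 fold change of 0.59 between the ICH and sham groups (ICH minus sham), and the 13 without it had a median of 0.57.

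IEG levels were shifted upward in ICH mice relative to sham mice. Because the list was chosen with earlier results of these data known, the shares below are no test of it. Of the 39 genes, 37 had a log2 fold change above 0, as did 61.1% of all genes tested, and the median was 0.59 against 0.08 over all genes tested. The p criterion was passed by 21 genes, all higher in ICH mice, where 7.88% of all genes tested passed it in that direction. It was passed in the other direction by 0 IEGs and by 4.42% of all genes tested. Called genes numbered 7, all higher, against a background of 1.46%: Egr1, Egr2, Nr4a1, Nr4a2, Klf10, Arc, and Plk2. The ICH and sham mice did not overlap in 17 genes, all higher in ICH mice, against 13.2% of all genes tested, and 6.22% of all genes were apart and lower. In limma 0 of the 39 had an adjusted p under 0.05, as with voom on recovered reads, where 22 passed the p criterion. The lowest was 0.193, for Trib1, and 7 of all genes tested (0.0241%) were under 0.05. When the samples were scaled to equal medians, the median of all genes moved from 0.08 to -0.03, by more than 0.1. The median of the IEGs then was 0.48, 33 of the 39 were above 0, and 2 (Nr4a2 and Arc) were called. Relative to the median of all genes, the IEGs stood 0.51 higher. Without sham replicate 3 only Nr4a2 was called and 14 genes passed the p criterion, and without sham replicate 2 there were 9 called genes.

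**Figure D1:**
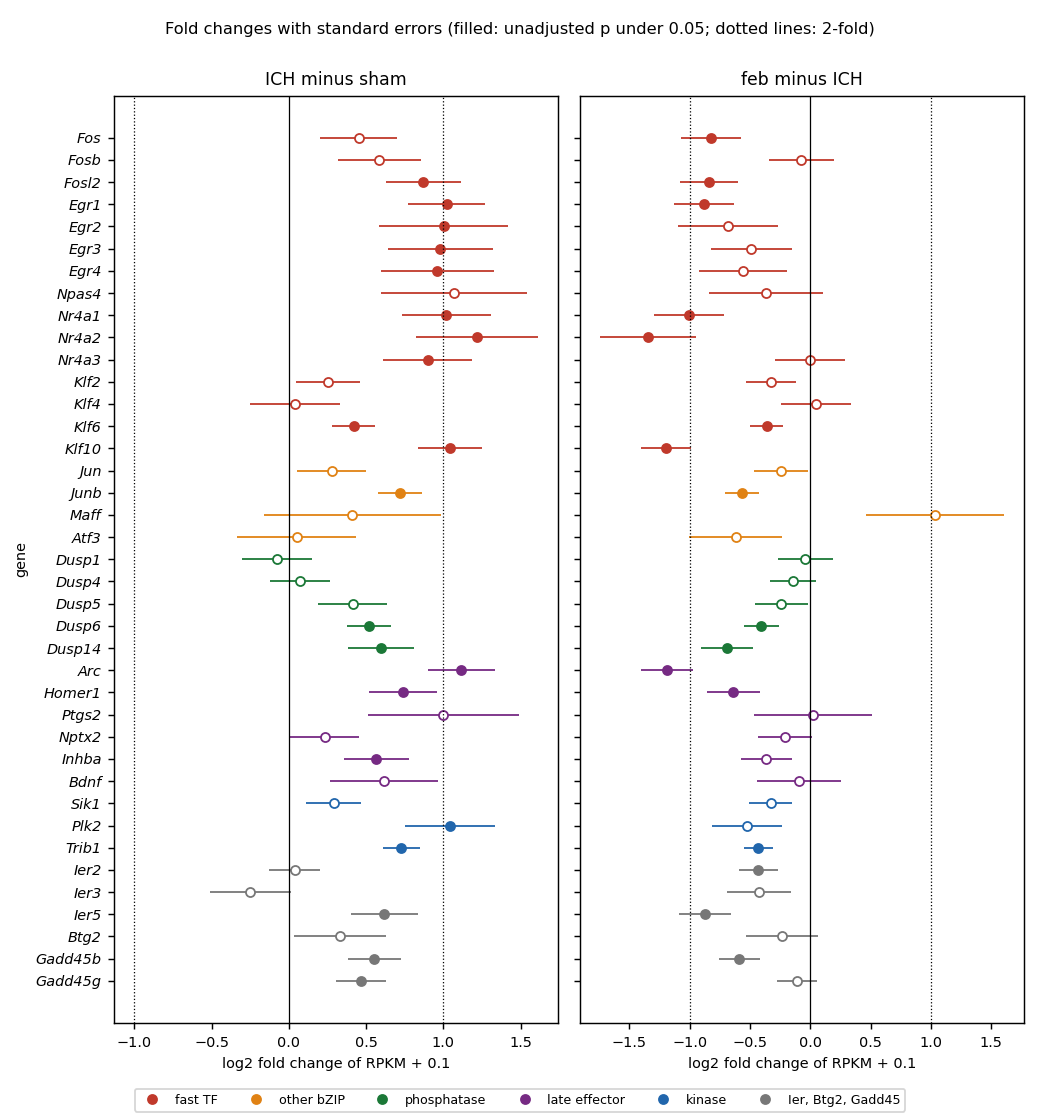
Log2 fold change of RPKM + 0.1 with its standard error for each of the 39 IEGs (rows, colored by role), ICH minus sham on the left and feb minus ICH on the right. Filled points have an unadjusted p under 0.05 in limma and dotted lines mark a 2-fold change. On the left 37 genes lie above 0, and on the right 36 lie below 0 and 3 above, Maff (1.04), Klf4 (0.05), and Ptgs2 (0.02).

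Fast transcription factors had the highest median log2 fold change of the 6 roles in the ICH group, 0.96. All 15 were above 0, 14 of them above the median of all genes, 10 passed the p criterion, and 5 were called. Nr4a2 (Nurr1), an orphan nuclear receptor, had an RPKM of 3.65, 1.40, and 3.15 in sham mice and 5.20, 9.80, and 4.31 in ICH mice. The groups did not overlap, and ICH replicate 2 was the highest (log2 fold change 1.22, SE 0.40, adjusted p = 0.347). The call was lost without ICH replicate 2 (0.87) or sham replicate 2 (0.81). Its relative Nr4a1 (Nur77), at chr15:101266846-101274792, had an RPKM of 5.0, 6.53, and 3.03 in sham mice and 9.57, 6.90, and 12.9 in ICH mice. The groups did not overlap, although ICH replicate 2 was close to sham replicate 2 (1.02, SE 0.29, adjusted p = 0.345). Nr4a3, the third member of the family, had 2.08, 1.59, and 1.15 in sham mice and 2.54, 4.25, and 2.5 in ICH mice. It passed the p criterion just below the fold change limit (0.90, SE 0.29, adjusted p = 0.347).

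The Egr zinc finger factors, which are induced through SRF and ELK, were also higher. Egr1 had an RPKM of 8.4, 11.3, and 7.39 in sham mice and 19.8, 12.6, and 23.9 in ICH mice, without overlap (1.02, SE 0.25, adjusted p = 0.334). Egr2, a low gene with 33 to 147 reads, had 0.329, 0.833, and 0.429 in sham mice and 1.14, 0.682, and 1.65 in ICH mice. ICH replicate 2 was below sham replicate 2, so the groups overlapped (1.0, SE 0.42, adjusted p = 0.393), and the call was close to the limit of both criteria. Egr3 (0.98) and Egr4 (0.96) passed the p criterion but not the fold change, and both also overlapped through sham replicate 2. Npas4, a neuron-specific factor that responds to calcium entry, had 0.919, 1.28, and 0.945 in sham mice and 4.47, 0.951, and 2.75 in ICH mice. ICH replicate 2 was within the range of the sham mice, and Npas4 did not pass the p criterion (1.07, SE 0.47, unadjusted p = 0.0508).

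Of the Klf factors, Klf10, a TGF-beta-inducible gene at chr15:38294413-38300707, was called. It had an RPKM of 2.5, 3.17, and 1.99 in sham mice and 4.49, 6.92, and 4.73 in ICH mice. Every ICH mouse exceeded every sham mouse (1.04, SE 0.21, adjusted p = 0.284). Klf6 passed the p criterion (0.42) without overlap, whereas Klf2 (0.26) and Klf4 (0.04) did not. Among the Fos genes, Fosl2 (Fra-2) had 1.73, 1.57, and 1.11 in sham mice and 2.86, 3.36, and 2.11 in ICH mice, without overlap (0.87, SE 0.24, adjusted p = 0.345). Fos itself had 5.74, 2.91, and 2.86 in sham mice and 5.87, 4.64, and 4.61 in ICH mice. The level of sham replicate 1 was within the ICH range, and Fos did not pass the p criterion (0.45, SE 0.25, unadjusted p = 0.107). Fosb, a low gene with 65 to 171 reads, had 0.45, 0.594, and 0.370 in sham mice and 1.12, 0.573, and 0.642 in ICH mice (0.59, unadjusted p = 0.0591).

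The other bZIP factors, which pair with Fos proteins or bind related sites, showed a smaller shift, with a median of 0.34. Only Junb of the 4 passed the p criterion, with an RPKM of 5.67, 6.04, and 4.47 in sham mice and 8.24, 9.60, and 8.85 in ICH mice. The groups were well apart (0.72, SE 0.14, adjusted p = 0.281). Jun was the most abundant of them and had 20.4 to 23.9 in sham mice and 22.2, 40.6, and 21.7 in ICH mice, so its mean was set by ICH replicate 2. Maff (0.41) and Atf3 (0.05) were also highest in ICH replicate 2, at 2.42 and 0.989, while the other ICH mice lay at 0.983 or below for Maff and at 0.390 or below for Atf3.

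The MAP kinase phosphatases had a median of 0.41. Dusp6, a cytoplasmic member of the family, had 3.97, 4.30, and 3.80 in sham mice and 5.86, 5.48, and 6.12 in ICH mice, without overlap (0.52, SE 0.14, adjusted p = 0.341). Dusp14 passed the p criterion too (0.60), with an overlap through sham replicate 2. Dusp5 was apart between the groups (1.78 to 2.27 in sham mice, 2.36 to 3.03 in ICH mice) but did not pass the p criterion (0.41, unadjusted p = 0.0993). Dusp1, which is a common stress-responsive IEG, was at 2.89 to 3.10 in sham mice and 2.83, 1.97, and 3.91 in ICH mice (-0.08). Dusp4 was at 2.57 to 3.30 and 2.48 to 3.29 (0.07), and neither passed the p criterion.

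Of the late effectors, 3 of 6 passed the p criterion and the median was 0.68. Arc, at chr15:74669083-74672570, encodes a protein that controls AMPA receptor uptake at synapses. Its RPKM was 20.3, 19.6, and 13.8 in sham mice and 36.5, 29.1, and 52.7 in ICH mice, without overlap (1.11, SE 0.22, adjusted p = 0.278), and it was the only effector called. Without sham replicate 3 (0.94) or ICH replicate 3 (0.88) it remained above 0 but lost the call. Homer1, a postsynaptic scaffold, had 6.33, 12.2, and 6.67 in sham mice and 12.4, 13.4, and 14.6 in ICH mice. Sham replicate 2 almost reached the lowest ICH mouse (0.74, SE 0.22, adjusted p = 0.345). Inhba, the beta A subunit of activin, had 4.39, 5.41, and 3.09 in sham mice and 5.71, 7.80, and 5.5 in ICH mice (0.57, SE 0.21, adjusted p = 0.381). Ptgs2, which encodes cyclooxygenase-2, had 0.225 to 0.362 in sham mice and 0.794, 1.28, and 0.233 in ICH mice, and the spread of the ICH mice left it short of the p criterion (1.0, SE 0.49, unadjusted p = 0.0727). Bdnf (0.61) and Nptx2 (0.23) did not pass either.

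Plk2 and Trib1 were higher among the kinases. Plk2 (polo-like kinase 2), which acts on dendritic spines, had 16.5, 32.1, and 16.7 in sham mice and 38.1, 52.5, and 39 in ICH mice, without overlap (1.04, SE 0.29, adjusted p = 0.345). The pseudokinase Trib1, which had the lowest SE of the 39 genes, was at 1.31, 1.25, and 1.39 in sham mice and 2.28, 2.11, and 2.35 in ICH mice (0.73, SE 0.12, adjusted p = 0.193). Sik1, a salt-inducible kinase that limits CREB signaling, had overlapping groups (0.29). Of the growth arrest and Ier genes, Ier5 (0.62), Gadd45b (0.55), and Gadd45g (0.47) passed the p criterion. Gadd45b, a stress sensor linked to DNA demethylation, had 4.22, 3.81, and 3.51 in sham mice and 5.42, 7.45, and 4.52 in ICH mice, without overlap (SE 0.17, adjusted p = 0.347). Gadd45g, of the same family, was apart as well, at 11.5, 11.3, and 12.8 in sham mice and 17, 18.6, and 14 in ICH mice (SE 0.16, adjusted p = 0.366). Ier2 (0.04, SE 0.16), Ier3 (-0.25), and Btg2 (0.33) did not pass.

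Markers of several cell types moved with the IEGs in this comparison. Of 9 markers of cortical excitatory neurons, 7 were above 0, and 5 were called higher in the ICH group (Tbr1, Neurod6, Neurod2, Slc17a7, and Fezf2) and 0 lower. Rorb (-0.14) and Cux2 (-0.03) were below 0, and Lamp5 (0.19) did not pass the p criterion. Neurod6 overlapped, with 10.4 in sham replicate 1 against 7.30 and 6.54 in ICH replicates 1 and 3. Their summed RPKM was 67.7, 48.5, and 38.1 in sham mice and 97, 154.5, and 82.7 in ICH mice. Thalamic markers were lower in ICH mice, 6 of 6 below 0 with Tcf7l2 called, with a summed RPKM of 144.6 to 220.6 in sham mice and 35.9 to 165.3 in ICH mice. All 8 striatal markers were above 0 with a median of 1.04, and 0 of them passed the p criterion. Their summed RPKM was 45.1, 336.4, and 120.0 in sham mice and 151.0, 253.8, and 339.3 in ICH mice. Sham replicate 2, with the most striatal signal of its group, was the highest sham mouse for 14 IEGs, which included Egr1, Egr2, Egr3, Egr4, and Plk2, and sham replicate 1, with the least, was the highest for 19, which included Fos, Nr4a2, Nr4a3, and Arc. Microglial markers were above 0 in 7 of 7 with a median of 0.53, and Tmem119 and Aif1 passed the p criterion as higher, with 0 called. Their summed RPKM was 55.1, 72.0, and 60.2 in sham mice and 82.4, 122.0, and 66.1 in ICH mice, where ICH replicate 3 lay within the sham range. Of the 6 pan-neuronal markers, 3 were above 0 and 3 below, and 0 were called. Rbfox3 (0.32) and Syt1 (0.29) passed the p criterion as higher. Nefl (-0.86) and Tubb3 (-0.43) were lower and did not pass. With the mean cortical marker level as a covariate, 10 IEGs passed the p criterion and 6 were called, which were partly other genes. Egr1 (1.53), Egr2 (2.15), and Arc (1.13) were called again, Egr4, Dusp14, and Homer1 were called in addition, and Nr4a1 (1.11), Nr4a2 (0.39), Klf10 (0.64), and Plk2 (1.12) no longer passed. The mean log2 level of the cortical markers was 1.47 to 2.54 in sham mice and 2.795 to 3.44 in ICH mice. Without overlap, this fit cannot separate marker level from group. Nr4a1 and Plk2 kept their fold changes, and each SE was 0.54, against 0.29 without the covariate. Nr4a2 and Klf10 had smaller fold changes, with SEs of 0.64 and 0.35. In bulk tissue, more cells of a type and more RNA per cell cannot be told apart. The part of these regional and microglial differences in the IEG result was not tested.

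**Figure D2:**
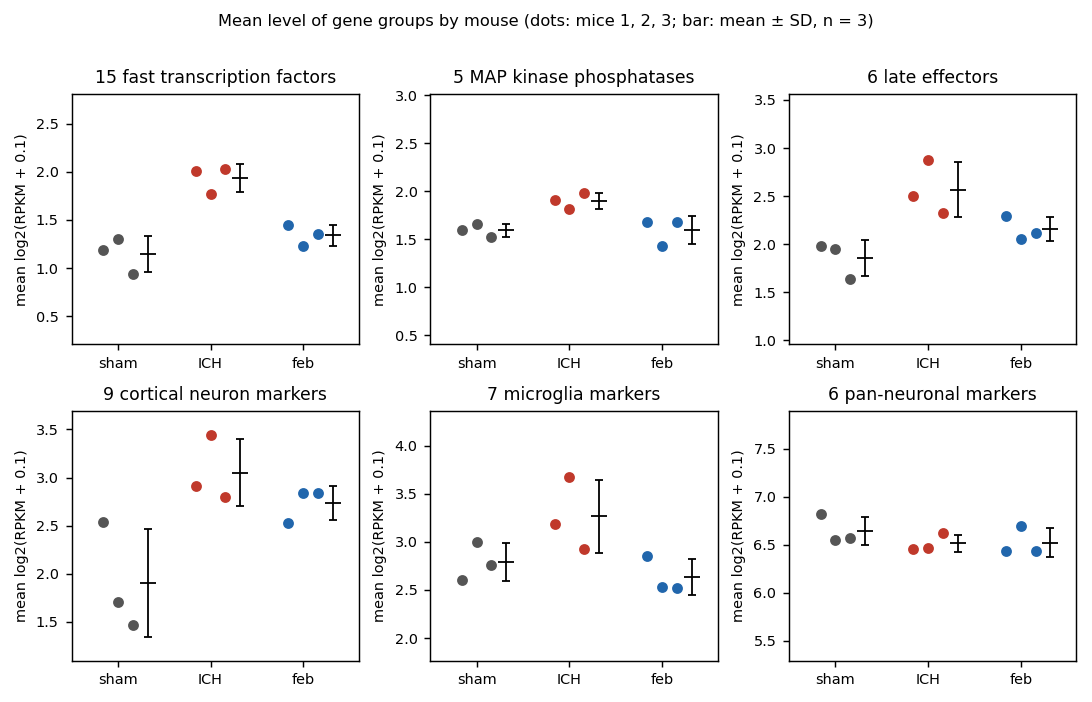
Mean log2(RPKM + 0.1) over the fast transcription factors, MAP kinase phosphatases, late effectors, and cortical, microglial, and pan-neuronal markers in each mouse (dots, mice 1, 2, and 3 from left to right), with the mean ± SD of each group (n = 3). For the fast transcription factors the ICH mice lie at 1.77 to 2.03, above all sham mice (0.94 to 1.31) and all feb mice (1.22 to 1.44).

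Feb mice showed a downward shift relative to ICH mice. Of the 39 IEGs, 36 were below 0 and 3 above, where 47.8% of all genes tested were above 0, and the median was -0.42, against -0.01 over all genes tested. The p criterion was passed by 16 genes, all lower in feb mice, where 6.16% of all genes tested passed it in that direction, and by 0 higher, against 4.90%. The groups did not overlap in 16 genes, all lower in feb mice, against 10.1% of all genes tested (7.04% in the other direction). Called genes were Nr4a1, Nr4a2, Klf10, and Arc, 4 in all and all lower, against a background of 1.05%. After adjustment 0 passed in limma, as did 0.00689% of all genes tested, and the lowest adjusted p was 0.181, for Klf10. This comparison and the one above use the same 3 ICH mice, so a high value in an ICH mouse moves both. Without ICH replicate 3 there were 3 called genes, and without ICH replicate 2 there were 6.

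The called genes had low and even levels in the feb mice. Klf10 had an RPKM of 2.07, 2.46, and 2.23 in feb mice, all below the lowest ICH mouse at 4.49 (-1.19, SE 0.21, adjusted p = 0.181). Arc had 17.0, 17.4, and 15.9, all below the lowest ICH mouse at 29.1 (-1.19, SE 0.22, adjusted p = 0.197). The feb mice differed from one another by far less than the ICH mice, with an SD of 0.757 for Arc against 12. Nr4a2 had 2.93, 2.12, and 2.0 in feb mice (-1.35, SE 0.40, adjusted p = 0.313). Nr4a1 had 4.79, 4.29, and 4.96 (-1.01, SE 0.29, adjusted p = 0.309), and its call was lost without ICH replicate 3 (-0.79) or feb replicate 2 (-0.95). The mean RPKM of the feb group was 0.419 times that of the ICH group for Klf10, 0.425 times for Arc, 0.365 times for Nr4a2, and 0.478 times for Nr4a1.

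**Figure D3:**
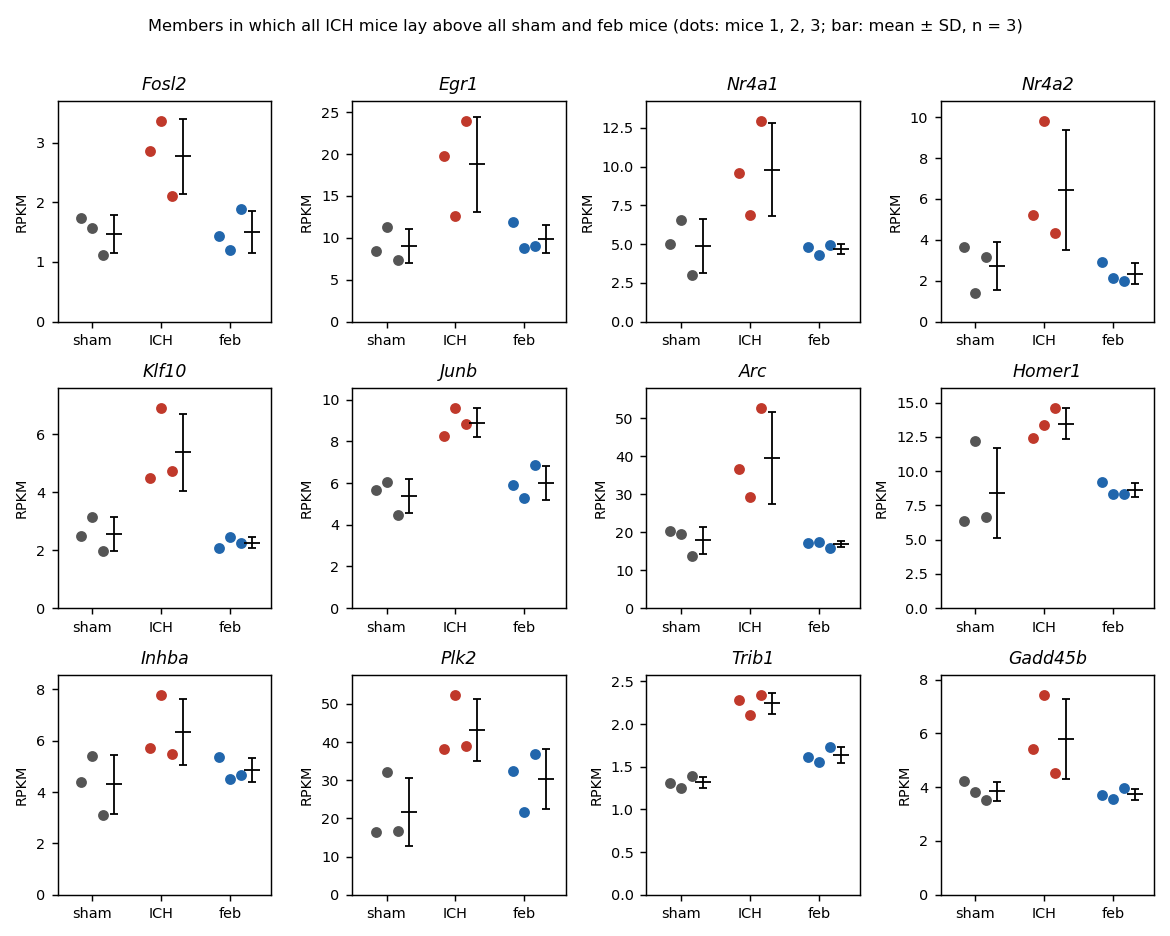
RPKM in each mouse (dots, mice 1, 2, and 3 from left to right) with the mean ± SD of each group (n = 3) for the 12 IEGs in which every ICH mouse lay above every sham and feb mouse. Each axis starts at 0. Arc runs from 13.8 to 20.3 in sham mice, 29.1 to 52.7 in ICH mice, and 15.9 to 17.4 in feb mice.

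Other fast transcription factors passed the p criterion without reaching a 2-fold change. Egr1 had 11.8, 8.75, and 9.03 in feb mice, below all ICH mice (-0.88, SE 0.25, adjusted p = 0.301). Fosl2 had 1.43, 1.20, and 1.89 (-0.84, SE 0.24, adjusted p = 0.309). Fos had 2.81, 2.58, and 2.99, the least spread of its 3 groups and below all ICH mice (-0.82, SE 0.25, adjusted p = 0.324). Between the ICH and sham groups, with the same SE, Fos did not pass. Klf6 passed as well (-0.36). The members that did not pass included Egr2 (-0.68), Egr4 (-0.56), Egr3 (-0.49), and Npas4 (-0.36), whose feb and ICH mice overlapped. Nr4a3 stood apart from its relatives, with 3.78, 2.24, and 3.18 in feb mice and a difference of 0.00 (SE 0.29) from the ICH group. Fosb (-0.07) and Klf4 (0.05) were likewise near 0.

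Among the other roles, Junb (-0.56), Dusp6 (-0.40), Dusp14 (-0.69), Homer1 (-0.64), Trib1 (-0.43), Ier2 (-0.43), Ier5 (-0.87), and Gadd45b (-0.59) passed the p criterion. Ier5, which regulates heat shock factor activity, had 7.22, 10.4, and 9.30 in ICH mice and 5.41, 5.48, and 3.75 in feb mice, without overlap (SE 0.22, adjusted p = 0.270). Homer1 had 9.19, 8.32, and 8.34 in feb mice, all below the ICH mice (SE 0.22, adjusted p = 0.376). Junb had 5.89, 5.27, and 6.86, again below the ICH mice (SE 0.14, adjusted p = 0.271). Gadd45b, at 3.70, 3.57, and 3.97 in feb mice, was likewise below all ICH mice (SE 0.17, adjusted p = 0.312). Trib1 (SE 0.12, adjusted p = 0.299) and Ier2 (SE 0.16, adjusted p = 0.403) were apart from the ICH mice too, and their feb values are given with the sham comparison. Inhba, at 5.38, 4.5, and 4.66 in feb mice (-0.37, SE 0.21, adjusted p = 0.543), and Plk2 (-0.53, SE 0.29, adjusted p = 0.524) had no overlap but did not pass. Plk2, at 32.5, 21.7, and 36.8 in feb mice, almost reached the lowest ICH mouse at 38.1. Dusp1 (-0.04), Ptgs2 (0.02), Bdnf (-0.09), and Gadd45g (-0.11) did not pass, with SEs of 0.23, 0.49, 0.35, and 0.16. Of the 3 genes above 0, Maff was the farthest from it, at 3.98, 1.03, and 4.30 in feb mice against 0.983, 2.42, and 0.757 in ICH mice. The groups overlapped and Maff did not pass (1.04, SE 0.57, unadjusted p = 0.105).

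By role, the medians were -0.56 for the fast transcription factors, -0.40 for the other bZIP factors, -0.24 for the phosphatases, -0.29 for the late effectors, -0.43 for the kinases, and -0.43 for the growth arrest and Ier genes. Other tissue markers moved in this comparison too. All 8 choroid plexus markers were called lower in the feb group, with a summed RPKM of 458.4 to 967.4 in ICH mice and 30.6 to 88.4 in feb mice, and 4 of 5 red blood cell markers were called lower. The red blood cell markers summed to 123.8, 27.7, and 26.7 in ICH mice, 17.1 to 21.6 in feb mice, and 32.3 to 40.6 in sham mice. ICH replicate 1 was far above the other ICH mice, which lay below all sham mice. Of 7 microglial markers, 5 passed the p criterion as lower and Aif1 was called, and their summed RPKM was 82.4, 122.0, and 66.1 in ICH mice and 76.3, 50.3, and 60.9 in feb mice. The cortical neuron markers overlapped, at 73.4, 85.2, and 91.4 in feb mice, with Tbr1 the only one called (lower). All 8 striatal markers were below 0 (median -0.44) and all 6 thalamic markers above 0 (median 0.75), and 0 of either passed the p criterion. With the mean of the cortical markers as a covariate, 18 IEGs passed the p criterion and 6 were called, all lower, the same 4 with Egr1 (-1.02) and Egr2 (-1.0) in addition. The part of the choroid plexus, blood, microglial, striatal, and thalamic differences in the IEG result was not tested.

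Few IEGs passed the criteria between the feb and sham mice. Of the 39 genes, 25 were above 0 (58.7% of all genes tested) and 14 below, and the median was 0.09 against 0.05 over all genes tested. The sign of this median turned to -0.02 with equal medians and to -0.02 with the cortical marker level as a covariate. The p criterion was passed by 3 genes that were higher (Nr4a3, Maff, and Trib1), against 5.63% of all genes tested, and by 2 that were lower (Ier2 and Ier3), against 2.90%. Maff, a small Maf factor, was the only one called (1.45, SE 0.57, adjusted p = 0.580), where 1.59% of all genes tested were called higher. It had 1.23, 0.776, and 0.755 in sham mice, and feb replicate 2 at 1.03 lay within their range. The call was lost without feb replicate 1 (1.16) or feb replicate 3 (1.1), and also without sham replicate 2 or 3. After adjustment 0 IEGs passed in limma (0.00345% of all genes tested), and 5 had an unadjusted p under 0.05. The groups did not overlap in 6 genes that were higher and 2 that were lower, against 7.78% and 4.90% of all genes tested. Tissue markers differed between these groups as well. Of 9 cortical neuron markers 4 were called higher, and 7 of 8 choroid plexus and 3 of 5 red blood cell markers were called lower. Of 8 endothelial markers, 5 passed the p criterion as lower. No marker of these lists passed in the other direction. The part of these differences in the IEG result was not tested.

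Nr4a3 and Trib1 were among the IEGs that passed the p criterion as higher in feb mice than in sham mice. The share of such IEGs, 7.69%, was near the 5.63% of all genes tested. Nr4a3 was above all sham mice in every feb mouse (0.90, SE 0.29, adjusted p = 0.565), the same size as in the ICH group. Trib1 had 1.62, 1.56, and 1.73 in feb mice, between the sham and ICH mice without overlap with either (0.29, SE 0.12, adjusted p = 0.582). Gadd45g, at 13.2, 13.6, and 19.6 in feb mice (0.36, SE 0.16, adjusted p = 0.600), Npas4 (0.71), Ptgs2 (1.02), and Fosb (0.51) were apart from the sham mice in the upward direction but did not pass the p criterion. Ier2 had 1.66, 1.67, and 1.17 in feb mice, below all sham mice (1.81 to 2.22) and all ICH mice (1.95 to 2.13), with a log2 fold change of -0.39 from the sham group (SE 0.16, adjusted p = 0.582). Ier3 had 0.902, 1.12, and 0.537, below all sham mice (1.18 to 1.68). Both are short genes with few reads, 41 to 100 for Ier2 and 14 to 56 for Ier3.

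Across the 3 groups, a subset of IEGs was highest in the ICH group. Every ICH mouse was above every sham and feb mouse for 12 of the 39 genes (30.8%), where 4.43% of all genes tested had this order. They were Fosl2, Egr1, Nr4a1, Nr4a2, Klf10, Junb, Arc, Homer1, Inhba, Plk2, Trib1, and Gadd45b. The reverse order, every ICH mouse below all others, was seen for 0 of the 39 and for 2.14% of all genes tested. By role the 12 comprised 5 of 15 fast transcription factors, 1 of 4 other bZIP factors, 0 of 5 phosphatases, 3 of 6 late effectors, 2 of 3 kinases, and 1 of 6 growth arrest and Ier genes. The count was 9 with equal medians and 19 without ICH replicate 2, the library in which several fast factors were lowest. Leaving out a mouse can only keep or raise this count. With 3 mice against 3, the exact permutation test (two-sided) of a single gene cannot go below p = 0.1, which is its value for each of these genes in both comparisons with the ICH group.

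**Figure D4:**
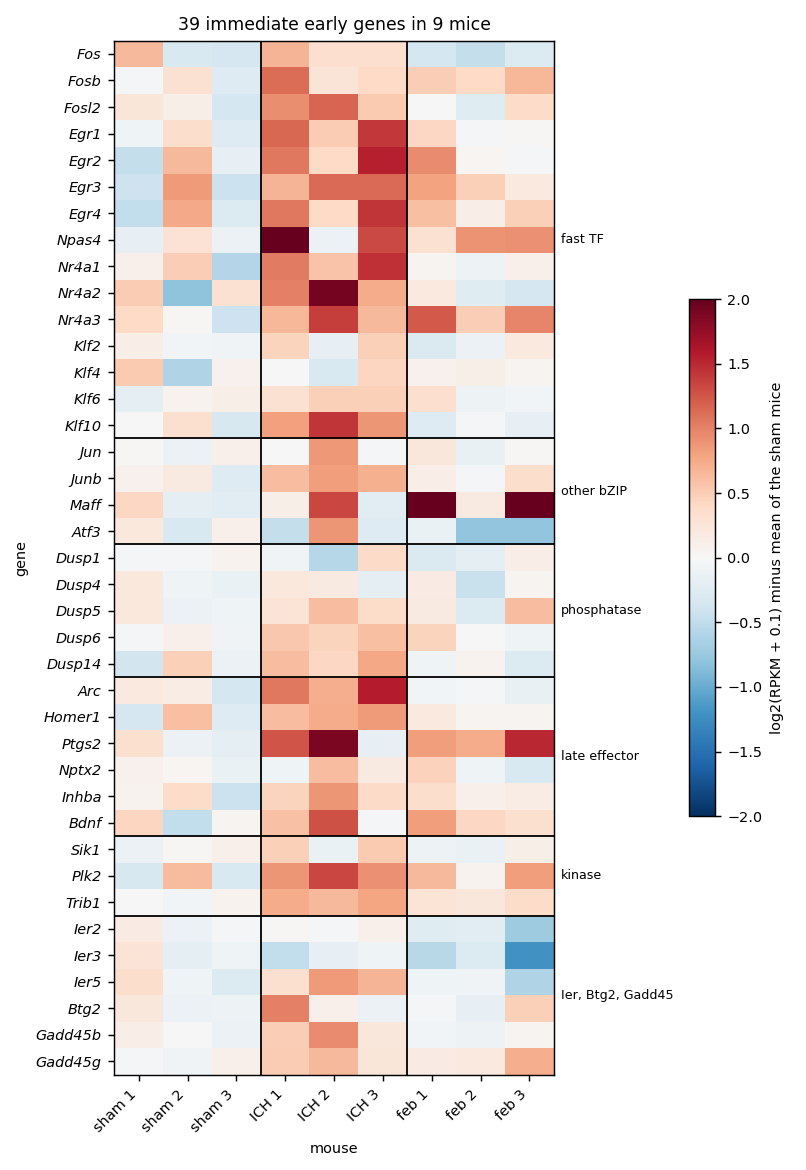
Log2(RPKM + 0.1) of each IEG (rows, by role) in each mouse (columns), minus the mean of the sham mice, with colors cut at -2 and 2. The ICH columns are mostly red for the fast transcription factors, and ICH replicates 1 and 3 differ from replicate 2 for Npas4 (RPKM 4.47 and 2.75 against 0.951).

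The ICH mice differed in which IEGs were high. ICH replicate 1 was the highest of its group for 5 genes, which included Fos, Fosb, and Npas4. ICH replicate 2 was the highest for 18, which included Nr4a2, Nr4a3, Klf10, Jun, Plk2, Bdnf, and Ptgs2. ICH replicate 3 was the highest for 16, which included Egr1, Egr2, Egr4, Nr4a1, and Arc. The mean log2 level over the 15 fast transcription factors was 2.01, 1.77, and 2.03 in these mice, and that over the 6 late effectors was 2.5, 2.88, and 2.33. ICH replicate 2 was thus the lowest for the first role and the highest for the other. It also had the highest cortical marker sum (154.5), the lowest thalamic sum (35.9), and the highest RPKM of the astrocyte marker Gfap (574).

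The comparison of roles was made within each mouse, as the mean log2 level of the fast transcription factors minus that of another role. Against the phosphatases it was -0.41, -0.36, and -0.59 in sham mice, 0.10, -0.04, and 0.04 in ICH mice, and -0.23, -0.21, and -0.33 in feb mice. The ICH mice did not overlap with either group, and the feb mice lay between the sham and ICH mice without overlap. Against the late effectors it was -0.79, -0.64, and -0.70 in sham mice, -0.50, -1.11, and -0.30 in ICH mice, and -0.85, -0.83, and -0.77 in feb mice. There the ICH mice surrounded both other groups, with replicate 2 lowest. The roles differ in size and in the levels of their genes, and these differences are given as a description.

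The 25 upstream regulators of IEGs, the kinases, coactivators, and transcription factors listed for this purpose, were examined in the same fit. Between the ICH and sham groups 24 were above 0 with a median of 0.22, Creb1, Mef2c, Mef2d, and Camk2a were among those that passed the p criterion as higher, and 0 were called. Camk2a, the alpha subunit of CaM kinase II in excitatory neurons, had 74.7, 139, and 85.3 in sham mice and 173, 210, and 173 in ICH mice (0.94, SE 0.22, adjusted p = 0.334). From the ICH to the feb group the median was -0.14, and Elk4, Creb1, and Mef2c passed as lower. Mef2c, a transcription factor of neurons, microglia, and endothelium, was the only regulator called. It had 10.2, 10.2, and 7.07 in sham mice, 17.2, 17.6, and 14.5 in ICH mice, and 6.17, 12, and 6.59 in feb mice, so every ICH mouse was above all others (-1.05, SE 0.25, adjusted p = 0.261). Creb1 itself was at 4.15 to 4.42 in sham mice, 4.71 to 5.29 in ICH mice, and 3.87 to 4.37 in feb mice. Between the feb and sham groups, Mkl1 (0.47) and Camk2a (0.69) passed as higher.

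A further 30 genes known to respond to activity or stress, which are not among the 39, were examined as well. Between the ICH and sham groups their median was 0.19, 5 passed the p criterion as higher (Per1, Sgk1, Arl4d, Midn, and Nab2), 1 as lower (Pim1), and 0 were called. These shares were 16.7% and 3.33%, against 7.88% and 4.42% of all genes tested. From the ICH to the feb group the median was -0.08, Fosl1 passed as higher, and Bhlhe40 and Midn passed as lower. There the shares, 3.33% higher and 6.67% lower, were near the 4.90% and 6.16% of all genes tested. Sgk1, a glucocorticoid-induced kinase, was the only one called between the feb and sham groups. It had 4.44, 5.06, and 6.22 in sham mice and 12.5, 7.24, and 11 in ICH mice. In feb mice it had 15.1, 6.50, and 17.9 (feb minus sham 1.20, SE 0.36, adjusted p = 0.565). Both groups that received blood lay above the sham mice, with replicate 2 of each close to the highest sham mouse. The neuropeptide genes Scg2 (-0.27) and Vgf (0.20) did not pass between the ICH and sham groups.

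Exons of 3 IEGs overlap those of a gene on the opposite strand, Jun with Junos (7.28% of its exon bases), Junb with Prdx2 (7.52%), and Bdnf with Gm45346 (14.4%). The library kit keeps strand, but the counting setting is not given in the sources used here, so reads in these stretches may belong to either gene. The other 36 have no such overlap.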

How the data were processed

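Total RNA of brain tissue from 9 mice was depleted of rRNA and sequenced with UMIs. The authors trimmed reads with Trimmomatic 0.36, built UMI consensus reads, aligned them to GRCm38, counted them on exons with featureCounts (Subread 1.5.1), and deposited RPKM values, 1 column per mouse. They called DEGs with edgeR 3.12.1 at p under 0.05 and a fold change over 2. The annotation release and the strand setting are not given in the sources used here. Values were whole multiples of 1 read (100% within 0.05 read), which gave the depth.

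Groups came from the labels. The 39 genes, their roles, and the other lists were chosen with earlier results of these data known. Every one of the 39 is accounted for, with full statistics for those called or without overlap in at least 2 comparisons. Of the regulators and other activity genes, those called or with the lowest p are named, and a few more were named after their values were seen. The result of 1 regulator is not reported here. A linear model (limma 3.58.1 in R 4.3.3, eBayes with trend) was fitted to log2(RPKM + 0.1) of all 9 mice over 29025 of 38621 genes, with no block. This scale understates changes of genes near 0.1. The script was tested on simulated data. Alternatives were other pseudocounts, filters, and scalings, voom on recovered reads, a replicate block, a cortical marker covariate, and each mouse left out. Promoter sequences are from RefSeq (GRCm38.p6), and gene positions and overlaps are from the positions deposited with the RPKM values. GENCODE transcripts were used only to check the bases after the start sites. Python 3.11.15 with pandas 2.3.3 and matplotlib 3.10.9 made tables and figures.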

Additional observations from a re-analysis of the deposited data

How the results depend on the processing

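The upward shift of the 39 IEGs in the ICH group and the downward shift in the feb group compared with it kept their direction in every alternative run, and no called IEG changed sign. The number of called IEGs was less stable, since most lay near a 2-fold change. Between the ICH and sham groups the 7 called genes became 2 with a pseudocount of 1, 2 with equal medians, 3 with quantile normalization, 4 with voom on recovered reads, and 21 with no fold change limit, and 1 to 9 when a mouse was left out. The median of 0.59 became 0.44 with a pseudocount of 1, 0.48 with equal medians, 0.48 with quantile normalization, and 0.32 with the cortical marker covariate, and 0.49 to 0.68 when a mouse was left out. With that covariate 10 genes passed an unadjusted p of 0.05 in place of 21, and 14 to 22 when a mouse was left out. Between the feb and ICH groups the 4 called genes became 2 with a pseudocount of 1 and 16 with no fold change limit, and 3 to 6 when a mouse was left out. The median of -0.42 became -0.30 with a pseudocount of 1, and -0.50 to -0.40 when a mouse was left out, with 12 to 19 genes passing the p criterion. Between the feb and sham groups the single called gene became 0 with a pseudocount of 1, 2 in a fit of only those groups, 5 with no fold change limit, 2 with the covariate, and 0 to 2 when a mouse was left out. Its median of 0.09 turned to -0.02 with equal medians (-0.0245) and with the covariate (-0.0157), and was 0.01 to 0.14 when a mouse was left out. Genes passing the p criterion there were 3 with the covariate and 0 to 7 when a mouse was left out. The 12 genes with every ICH mouse above all others were 9 with equal medians, and 12 to 19 when a mouse was left out. Leaving out a mouse cannot lower this count by construction, so that range is no check of it. A pseudocount of 1 shrinks the fold changes of low genes by construction as well, and the cause of the remaining changes was not tested.

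The labels give the groups the same replicate numbers without a shared source, and same-numbered mice did not deviate together (correlations of -0.127 to 0.019). With the replicate number as a block, 6, 4, and 0 IEGs were called in the comparisons of ICH with sham, feb with ICH, and feb with sham, and in the last 1 gene passed the p criterion in place of 5. Genes with few reads, such as Atf3 and Ier3 with 12 and 14 in the lowest mouse, are the least precise.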
